A study of Mus musculus with 3 samples.

Results

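Notch signalling was followed through 10 genes of the pathway in sorted cells of the mouse olfactory epithelium. They are the receptors Notch1, Notch2 and Notch3, the ligand genes Dll1, Dll3 and Jag1, the nuclear mediator Rbpj, and the target genes Hes1, Hes5 and Hey1. They were taken by name from the 18193 genes on the array, with earlier results of these data known, and 18 probe sets represented them. The cells came from Tgn1-2G transgenic mice of both sexes at postnatal days 5 to 8, in which GFP is known from other work to stand under control elements of the proneural gene Neurog1. Cells were sorted by brightness into a strongly fluorescent fraction (GFP+++, 1000000 cells), a weakly fluorescent fraction (GFP+, 1300000 cells) and an unlabelled fraction (GFP-, 6800000 cells). All 3 fractions carry the same transgene, and a label "number" of 32, taken to mean pooled mice, stands with each. With 1 array per fraction the differences have no replicate check and could not be tested, and the number of arrays limits the precision.

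Notch receptors are membrane proteins that are cut when a ligand of the Delta or Jagged family on a neighbouring cell binds them. The freed intracellular part enters the nucleus, joins the DNA-binding protein Rbpj and switches on repressors of the Hes and Hey families, which hold back proneural genes. In neural tissue, newly forming neurons are known to send the signal through Delta ligands, while progenitors and supporting cells receive it and keep Hes genes on.

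The values are MAS5 signals in arbitrary units, scaled to the same trimmed mean on each array. A floor of 104, the pooled median signal, was set under low values, because a probe set without transcript still gives a positive signal. Where one array lay under the floor, only a minimum for the fold can be given ("at least"), and calls of higher or lower genes require 2-fold or more. Markers followed the labelled enrichment of GFP+++: 9 of 10 immature neuron genes lay above 0 on the log2 scale against GFP- (median 0.48), and 7 of 8 mature neuron genes lay below 0 (median -0.46). With each array scaled by its median these medians were 0.90 and -0.05, with 5 of 8 mature neuron genes below 0, but relative to all genes they were 0.48 and -0.46. Probe sets of one gene, above the floor on both arrays, differed in log2 fold with a pooled SD of 0.30 for GFP+++ against GFP-. That SD was 0.24 for GFP+ against GFP- and 0.30 for GFP+++ against GFP+. It measures how far probe sets of a gene disagree on the same arrays. It holds nothing of errors shared by a whole array or of the spread between animals or sorts.

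Most of the 10 genes were lower in the strongly fluorescent cells than in the unlabelled ones, on the receiving and on the sending side alike. Notch2, Notch3, Jag1, Hes1 and Hey1 were lower by 2-fold or more in GFP+++ relative to GFP-, which is 5 of 10, and 0 were higher by as much. Of all 12235 genes compared, 12.4% passed 2-fold on the lower and 1.92% on the higher side. The median log2 fold of the 10 genes was -1.02, beside 0.01 for all genes. Rbpj was the member above the floor on all 3 arrays that did not lie below 0 in this comparison, and Hes5 barely passed the floor; Hes5 entered the counts and medians at its bound. With median scaling, which set the median of all genes at 0.42, Hey1 (-0.87) and Notch3 (-0.85) no longer passed 2-fold, and 3 genes did. In bulk sorted fractions, fewer cells of a type and less RNA per cell cannot be told apart.

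**Figure D1:**
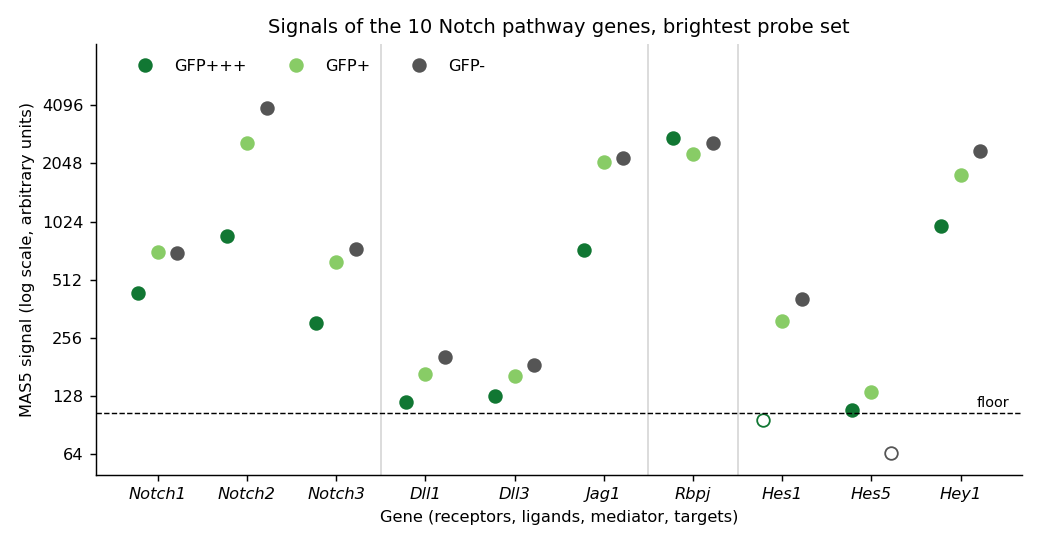
MAS5 signal (log axis) of the brightest probe set of each of the 10 genes on the GFP+++, GFP+ and GFP- arrays, 1 point per array, with open points at or under the floor of 104 (dashed line). The GFP+++ point is the lowest of the 3 for every receptor and ligand gene and for Hes1 and Hey1, and the 3 Rbpj points lie between 2279 and 2776.

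The 3 receptors differed in how far they were lower. Notch2 gave signals of 860 (GFP+++), 2596 (GFP+) and 3971 (GFP-), so that GFP- was the highest and GFP+ lay between. Between GFP+++ and GFP- the difference was 4.62-fold, and 2.68% of the genes compared had a lower fold. Notch2 is known as a receptor that works beside Notch1 in many epithelia. Its other probe set, 1451889_at, stayed under the floor on all 3 arrays, so the measurement rests on 1455556_at alone.

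Notch3, a receptor best known from the smooth muscle cells and pericytes of vessels, gave signals of 305 (GFP+++), 632 (GFP+) and 734 (GFP-). GFP+++ stood apart from the other arrays by 2.08-fold against GFP+ and 2.41-fold against GFP-. These values come from 1421965_s_at, whose name ending marks a probe set that can bind several transcripts. The other probe set, 1421964_at, was dim, with 110 in GFP+ and 126 in GFP- against 38.5 in GFP+++, and gave at least 1.21-fold. Without the first probe set Notch3 therefore no longer passes 2-fold (log2 fold -0.28).

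Notch1, the receptor through which lateral inhibition among neural progenitors is best known, was the least lowered receptor. Its brighter probe set, 1418634_at, gave signals of 437 (GFP+++), 713 (GFP+) and 706 (GFP-), a difference of 1.61-fold between GFP+++ and GFP-. The dimmer one, 1418633_at, gave 134, 136 and 176 in the same order, a difference of 1.32-fold. On the brighter probe set GFP+ and GFP- were alike and GFP+++ was low, whereas on the dimmer one GFP+++ and GFP+ were alike. Both log2 folds of GFP+++ against GFP-, -0.69 and -0.40, exceed the probe set SD, but with median scaling that of the brighter one (-0.28) does not. That scaling shifts the dimmer probe set, also above the floor on all arrays, upward by the same amount. Its fold then does not exceed the SD either.

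On the sending side, the promoters of the ligand genes are shown because proneural factors such as Neurog1, whose elements drive the transgene, are known to bind E boxes, and Delta ligand genes are among their known targets. Sequences are those of RefSeq on GRCm38.p6, from 250 bases before to 50 after a gene's start. Of the 10 genes, 8 (all but Hes1 and Hey1) matched an entry, with 10 promoters. The E box CAGCTG, which reads the same on both strands and is given in capitals below, was found in 3 of these 10 promoters, 1 for each ligand gene, and in 16.3% of all 32851 promoters. The first is Dll1 at chr17:15376883-15377182 (minus strand), the next Dll3 at chr7:28301736-28302035 (minus strand) and the last Jag1 at chr2:137116471-137116770 (minus strand).
Dll1: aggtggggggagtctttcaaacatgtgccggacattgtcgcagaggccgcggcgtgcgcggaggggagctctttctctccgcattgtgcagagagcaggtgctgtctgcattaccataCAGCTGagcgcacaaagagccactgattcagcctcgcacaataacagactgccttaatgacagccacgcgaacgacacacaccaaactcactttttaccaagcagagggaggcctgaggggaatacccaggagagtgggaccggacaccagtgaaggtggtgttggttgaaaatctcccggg
Dll3: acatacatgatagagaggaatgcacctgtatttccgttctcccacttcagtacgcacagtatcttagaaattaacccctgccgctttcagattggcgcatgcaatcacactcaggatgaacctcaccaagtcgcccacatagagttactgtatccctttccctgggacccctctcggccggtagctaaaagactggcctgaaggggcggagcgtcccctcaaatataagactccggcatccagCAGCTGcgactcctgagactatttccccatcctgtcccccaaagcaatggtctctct
Jag1: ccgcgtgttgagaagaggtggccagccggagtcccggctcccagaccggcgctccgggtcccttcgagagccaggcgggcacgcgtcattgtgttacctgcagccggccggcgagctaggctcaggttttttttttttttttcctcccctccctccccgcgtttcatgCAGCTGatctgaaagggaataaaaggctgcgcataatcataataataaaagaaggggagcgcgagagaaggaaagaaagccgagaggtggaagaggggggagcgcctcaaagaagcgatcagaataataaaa
The match begins 132 bases before the start of Dll1, 7 before that of Dll3 and 82 before that of Jag1. A further start of Dll1 had no match in its window. The N box CACNAG, or CTNGTG when read on the opposite strand, a form of site known for Hes repressors, was found in 4 of the 10 promoters, those of Notch1, Notch2, Notch3 and Dll1, and in 42.5% of all promoters. These motifs were chosen after the promoters had been read, and a match of letters is a description only.

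Dll1, the Delta ligand of newly committed neural cells, gave signals of 119 (GFP+++), 167 (GFP+) and 204 (GFP-). All 3 values lay within 2 times the floor, with GFP+++ the lowest, and the difference between GFP+++ and GFP- was 1.71-fold. Dll3, a Delta family protein that is known to act inside the cell rather than to activate receptors of a neighbour, gave 129, 163 and 186 in the same order. The arrays fell in the same order as for Dll1, with 1.45-fold between GFP+++ and GFP-. In genes whose brightest probe set lay under 2 times the floor, the probe set SD of the log2 fold was 0.35 (74 genes, chosen by lying above the floor on both arrays). The log2 folds of Dll1 (-0.77) and Dll3 (-0.53) exceed this SD, but with median scaling that of Dll3 (-0.12) fell inside it and that of Dll1 was -0.35. Each gene has a single probe set, so neither could be checked against another.

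Jag1, the Jagged ligand known from supporting cells and vessels, was lowered more than the Delta genes. Its brightest probe set, 1434070_at, gave signals of 732 (GFP+++), 2092 (GFP+) and 2179 (GFP-). GFP+ and GFP- were close together and GFP+++ was 2.98-fold below GFP- and 2.86-fold below GFP+. The probe set 1421106_at gave 113, 468 and 475, a difference of 4.19-fold between GFP+++ and GFP-. The dim 1421105_at gave 56.8, 135 and 147, which is at least 1.41-fold. All 3 probe sets thus placed GFP+++ alone at the low end.

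**Figure D2:**
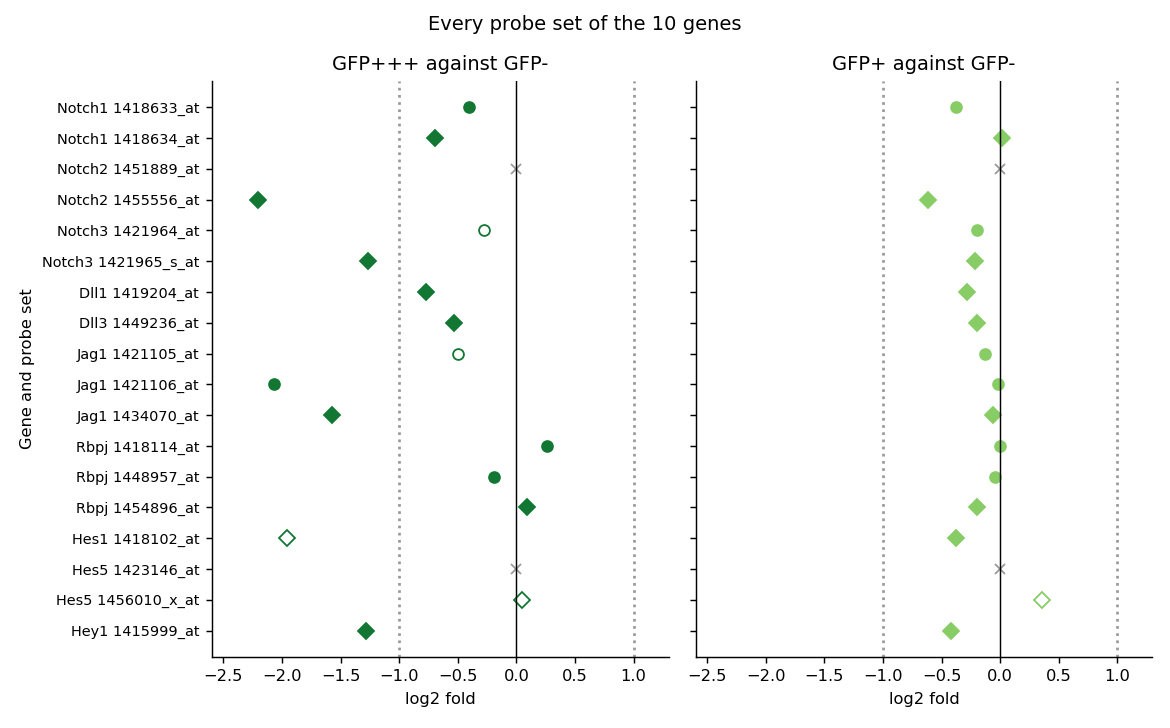
Log2 fold of each of the 18 probe sets for GFP+++ against GFP- (left) and GFP+ against GFP- (right). Diamonds mark the brightest probe set of a gene, circles the others, open symbols lower bounds, crosses at 0 the 2 probe sets under the floor on all arrays, and dotted lines 2-fold. On the left 6 probe sets lie at or beyond 2-fold lower, and on the right none does.

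Rbpj, the DNA-binding partner of all Notch receptors, showed little difference relative to all genes. Its brightest probe set, 1454896_at, gave signals of 2776 (GFP+++), 2279 (GFP+) and 2614 (GFP-), so GFP+++ and GFP- differed by 1.06-fold. The others went opposite ways between GFP+++ and GFP-: 1418114_at gave 971, 810 and 810, and 1448957_at gave 761, 846 and 870. The log2 folds of the 3 probe sets, 0.09, 0.26 and -0.19, are each smaller than the probe set SD, but with median scaling the fold of the brightest one (0.50) exceeds it. A change of an array's scaling factor moves all its genes above the floor together, so the distance between 2 such genes does not depend on it. Relative to Rbpj, Notch2 was lower by a log2 fold of -2.29, Jag1 by -1.66, Hey1 by -1.37, Notch3 by -1.36, Dll1 by -0.86, Notch1 by -0.78 and Dll3 by -0.62.

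Among the targets, Hes1, a repressor that keeps progenitors and supporting cells from becoming neurons, was low in the strongly fluorescent cells. It gave signals of 96.3 (GFP+++), 312 (GFP+) and 406 (GFP-). Only the GFP+++ value lay under the floor, so Hes1 was lower there by at least 3.89-fold against GFP- and by at least 2.99-fold against GFP+. Hey1, a related repressor also known from vessels, gave signals of 976 (GFP+++), 1782 (GFP+) and 2381 (GFP-). The arrays stood in the same order as for Hes1, and GFP+++ was 2.44-fold below GFP- and 1.83-fold below GFP+. Both genes have 1 probe set each.

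Hes5, a target of Notch in neural progenitors, could not be measured reliably. Its promoter is shown because among the 10 promoters it alone held the letters GTGGGAA, or TTCCCAC when read on the opposite strand, the core of the site that Rbpj is known to bind, which 6.38% of all 32851 promoters held. The sequence is at chr4:154960673-154960972 (plus strand), with both matches in capitals, beginning 226 and 83 bases before the start and lying on opposite strands.
Hes5: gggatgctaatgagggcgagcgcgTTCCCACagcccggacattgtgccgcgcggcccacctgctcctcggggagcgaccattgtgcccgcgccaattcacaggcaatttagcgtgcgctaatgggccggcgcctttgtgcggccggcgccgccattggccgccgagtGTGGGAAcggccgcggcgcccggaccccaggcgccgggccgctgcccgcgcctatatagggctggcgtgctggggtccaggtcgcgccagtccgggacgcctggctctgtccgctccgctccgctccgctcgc
The probe set 1456010_x_at gave signals of 108 (GFP+++), 134 (GFP+) and 64.5 (GFP-), the lowest value being that of GFP-. The probe set 1423146_at gave 64.96, 74.7 and 90.1, all under the floor and with GFP- the highest. The signals thus lay around the floor and the probe sets disagreed in order, so no difference in Hes5 is read from them.

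By the median over the 10 genes, the weakly fluorescent cells lay nearer to the unlabelled ones than the strongly fluorescent cells did. Of the 10 genes, 0 differed by 2-fold or more between GFP+ and GFP-, where 0.607% of 12196 genes passed 2-fold on the higher and 0.804% on the lower side. With shares this low, the count says nothing particular about the 10 genes. The median log2 fold of the 10 genes was -0.21, beside -0.01 for all genes. Notch2 was the lowest at -0.61, followed by Hey1 (-0.42), Hes1 (-0.38) and Dll1 (-0.29). Notch2, Hey1 and Hes1 differed from GFP- by more than the probe set SD of 0.24, the last at -0.24 with median scaling, while Notch3 (-0.22), Rbpj (-0.20) and Dll3 (-0.19) did not. Dll1 did not exceed the SD of dim genes (0.29 in this comparison), and was -0.15 with median scaling. Jag1 (-0.06) and Notch1 (0.01) lay at 0 within the probe set SD. The sign of Jag1 turned with median scaling (0.08) and that of Notch1 with quantile normalization (-0.03). The distance of Notch2 from Jag1, 0.55 on the log2 scale in this comparison, exceeded the SD of a difference between genes (0.34).

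Between the fluorescent fractions, Notch2, Notch3, Jag1 and Hes1 were lower by 2-fold or more in GFP+++ relative to GFP+, which is 4 of 10, and 0 were higher by as much. Of 11881 genes, 9.34% passed 2-fold on the lower and 0.985% on the higher side. Notch2 was 3.02-fold lower, and Jag1 and Hes1 have been given above. Notch3 did not pass 2-fold with median scaling (-0.78) or quantile normalization (-0.88). This comparison uses the same GFP+++ array as the first and is no separate evidence for it.

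Receiving and sending sides were compared through the distance between ligand and receptor folds. In GFP+++ against GFP-, the log2 folds of the ligand genes ran from -1.57 (Jag1) to -0.53 (Dll3) and those of the receptors from -2.21 (Notch2) to -0.69 (Notch1), so the ranges overlapped. Of the 9 pairs of a ligand and a receptor, 6 differed by more than the SD of a difference, 0.43. The pairs reuse the folds of the same few genes, and how often pairs of other genes differ by as much was not tested. The count is therefore a description and is not read as a difference between the sides. Dll1 lay above Notch2 by 1.44 and above Notch3 by 0.50, and Dll3 above them by 1.67 and 0.74. Neither Delta gene differed from Notch1 by more than that SD, at -0.08 for Dll1 and 0.16 for Dll3. Jag1 lay below Notch1 by a log2 fold of -0.88 and above Notch2 by 0.63, both more than that SD. Its distance from Notch3, -0.30, was within that SD. Both Delta genes were thus less lowered than Notch2, and Dll1, Dll3 and Jag1 all had their lowest signal in GFP+++. The distances from Notch3 rest on its probe set 1421965_s_at. Without it Notch3 had only a bound, at -0.28, from a probe set under the floor in GFP+++. With the median over probe sets, which takes in this bound, both Notch3 and Dll1 were at -0.77. In the order of folds from Notch2 over Hes1 (at its bound), Jag1, Hey1, Notch3, Dll1 and Notch1 to Dll3 and Rbpj, with Hes5 left out, neighbours differed by more than the SD of a difference between Notch3 and Dll1 (0.50, under the same limit) and between Dll3 and Rbpj (0.62).

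The rest of the pathway differed less between the fractions. Of 58 other pathway genes on the array, 50 passed the floor in GFP+++ or GFP-, and 3 were at least 2-fold lower (6%, beside 12.4% of all genes) and 0 at least 2-fold higher. Their median log2 fold was -0.16, and 0.25 with median scaling, but relative to all genes it was -0.17 under both. With median scaling 1 gene (Bhlhe40) was at least 2-fold lower and 2 were at least 2-fold higher, and with quantile normalization the counts were 2 and 1. Lfng, the Fringe enzyme that adds sugars to Notch and tunes which ligands it answers, gave signals of 135 (GFP+++), 331 (GFP+) and 308 (GFP-). It was low in GFP+++ only, by 2.29-fold against GFP-. Bhlhe40, a repressor related to the Hes family, gave 42.9, 364 and 477 and was lower in GFP+++ by at least 4.57-fold against GFP-. Tle4, a Groucho corepressor that Hes proteins recruit, gave 659, 964 and 1391, a difference of 2.11-fold, with GFP+ between.

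**Figure D3:**
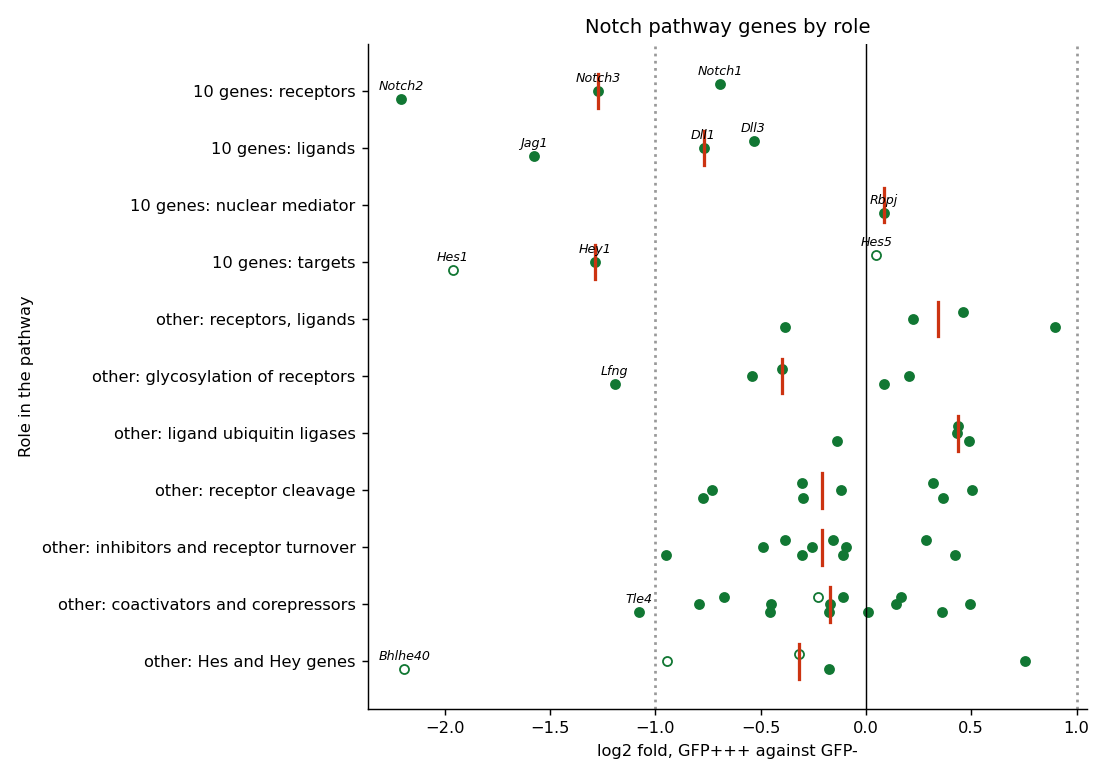
Log2 fold of GFP+++ against GFP- for the 10 genes and the 50 other pathway genes above the floor, 1 point per gene, by role. Open points are lower bounds, red bars medians, dotted lines 2-fold, and names stand at the 10 genes and at genes 2-fold or more apart. Notch2, Hes1, Jag1, Hey1, Notch3, Bhlhe40, Lfng and Tle4 lie at or beyond 2-fold lower, and under this scaling no gene lies at or beyond 2-fold higher (2 do with median scaling).

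By role, the ubiquitin ligases that act on ligands in the sending cell had a median on the other side of 0 from that of Notch1, Notch2 and Notch3. The remaining receptor gene, Notch4, lay on the side of the ligases (log2 fold 0.46). Of all genes compared, 49.3% lay below 0. The 4 ligase genes Mib1, Mib2, Neurl1a and Neurl1b had a median log2 fold of 0.44, with none past 2-fold. Of them 3 of 4 lay above 0, a count too small to tell from the share of all genes. Mib1, the brightest and the best-known of these enzymes, was the exception at -0.14, with 1575 in GFP+++, 1991 in GFP+ and 1731 in GFP-; its sign turned with median scaling. Of the other receptors, ligands and ligand-like proteins, 4 of 8 passed the floor, with a median of 0.34. The brightest was Dner, a neuronal membrane protein proposed as a Notch ligand, which gave 3560, 4695 and 4647 (log2 fold -0.38, and 0.03 with median scaling). Further genes of this group, chosen after their values were seen, were not lower in GFP+++: the ligand gene Jag2 gave 941, 772 and 807, and the endothelial receptor gene Notch4 gave 288, 250 and 209.

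Of the 8 enzymes and subunits that cut the receptor none passed 2-fold between GFP+++ and GFP-, with a median of -0.21. Among them, named after their values were seen, the proteases Adam17 (-0.77) and Furin (-0.73) lay lower by more than the probe set SD. The gamma-secretase subunits Psen2 (0.51), Aph1b (0.37) and Ncstn (0.32) lay higher by more than that SD. Psenen, a subunit of the gamma-secretase complex and the brightest of them, gave signals of 5399 (GFP+++), 5668 (GFP+) and 5868 (GFP-). The 10 inhibitors and genes of receptor turnover had a median of -0.21, none past 2-fold, and Dtx1, a Deltex ubiquitin ligase and the brightest, gave 2496, 3157 and 1864. Of 14 coactivators and corepressors Tle4 alone passed 2-fold, with a median of -0.17, and the corepressor Ctbp1 gave 7683, 6031 and 5971. The 5 glycosylation genes had a median of -0.40, and Rfng, the brightest Fringe gene, gave 1299, 1312 and 1128. With median scaling the medians of the cutting enzymes, inhibitors, coregulators and glycosylation genes turned to 0.21, 0.21, 0.24 and 0.02, but relative to all genes they were -0.21, -0.21, -0.18 and -0.40 there, and -0.22, -0.22, -0.18 and -0.41 as first scaled.

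Among the other Hes and Hey genes, 5 of 8 passed the floor and 4 of these lay below 0. Hes6, known to oppose Hes1 and to promote neuron formation, gave signals of 3429 (GFP+++), 2655 (GFP+) and 3870 (GFP-). Its log2 fold of -0.17 against GFP- lay within the probe set SD and turned its sign with median scaling, while Hes1 was lower by at least 3.89-fold. Hey2 and Heyl, chosen after their values were seen, were under the floor in GFP+++ (28.0 and 63.7) and passed it in GFP- (130 and 201). They were thus lower by at least 1.25-fold and at least 1.92-fold. Bhlhe41 went the other way, with 223 (GFP+++), 182 (GFP+) and 132 (GFP-). Its log2 fold against GFP- was 0.75, and 1.17 with median scaling. The proneural factors with their partners and Id inhibitors had a median of 0.02 over 12 genes, which was 0.44 with median scaling. Relative to the median of all genes it was 0.02 under both scalings, and -0.06 after quantile normalization. Of the 12 genes, 7 lay above 0 and 5 below. At 2-fold or more 2 were lower and 1 higher, beside 12.4% and 1.92% of all genes. The proneural factor Neurod1 did not pass 2-fold but was lower, with 4078 (GFP+++), 5069 (GFP+) and 6649 (GFP-). Its log2 fold against GFP- was -0.71, and -0.29 with median scaling. Nhlh1, a factor of new neurons, had a 2.35-fold higher signal in GFP+++ relative to GFP-, while Id1 and Id3, inhibitors of proneural factors, were 3.64-fold and 2.40-fold lower. With median scaling Id3 (-0.85) no longer passed and Nhlh2 (1.31) did, which left 1 lower and 2 higher.

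Markers of other cells of the mucosa were also lower in GFP+++, and values are set beside the Notch genes here. The summed signal of the 3 receptor genes came to 1601 (GFP+++), 3941 (GFP+) and 5412 (GFP-), a GFP+++ to GFP- ratio of 0.296. That of 9 sustentacular cell markers was 49743, 65807 and 89423 (ratio 0.556), with 5 at least 2-fold lower, and 2 with median scaling (12.4% and 8.58% of all genes). For 9 markers of dividing cells it was 5146, 11297 and 14909 (0.345), with 9 at least 2-fold lower, and 7 with median scaling. For 8 horizontal basal cell markers it was 801, 2290 and 3554, with 5 at least 2-fold lower. In GFP+++ 6 of 8, among them Krt14, Krt15 and Trp63, lay under the floor and entered the median log2 fold of -1.39 at their bound. These epithelial lists thus ran in the same order over the arrays as Notch2, Notch3, Hes1 and Hey1. The ligand genes Dll1, Dll3 and Jag1 stood in that order too. So did the summed signals of vessel, gland, glia, fibroblast and leukocyte markers, and the order is therefore not particular to the receiving side.

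Markers of vessels were low too. The summed signal of 10 endothelial markers came to 641, 1661 and 2186, a sum that includes 6 of 10 markers under the floor in GFP+++. Over the 8 above the floor in GFP+++ or GFP- the median log2 fold was -0.61, with members under the floor at their bound, and 2 of 8, Cldn5 and Esam, were at least 2-fold lower. For 10 pericyte and smooth muscle markers it was 4162, 14855 and 23443 (median log2 fold -1.45, with members under the floor at their bound). Of these, 6 of 9 were at least 2-fold lower, with Pdgfrb and Tagln under the floor in GFP+++. For gland, ensheathing glia, fibroblast and leukocyte markers the median log2 fold, with members under the floor at their bound, was -1.97, -1.79, -4.30 and -3.89, with 8 of 8, 6 of 7, 8 of 8 and 8 of 8 genes at least 2-fold lower. The part of any of these cell types in the Notch gene folds was not tested. The fibroblast and leukocyte medians lay below the lowest fold of the 10 genes (-2.21, Notch2), and Sox10 stands in the gland and the glia list.

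**Figure D4:**
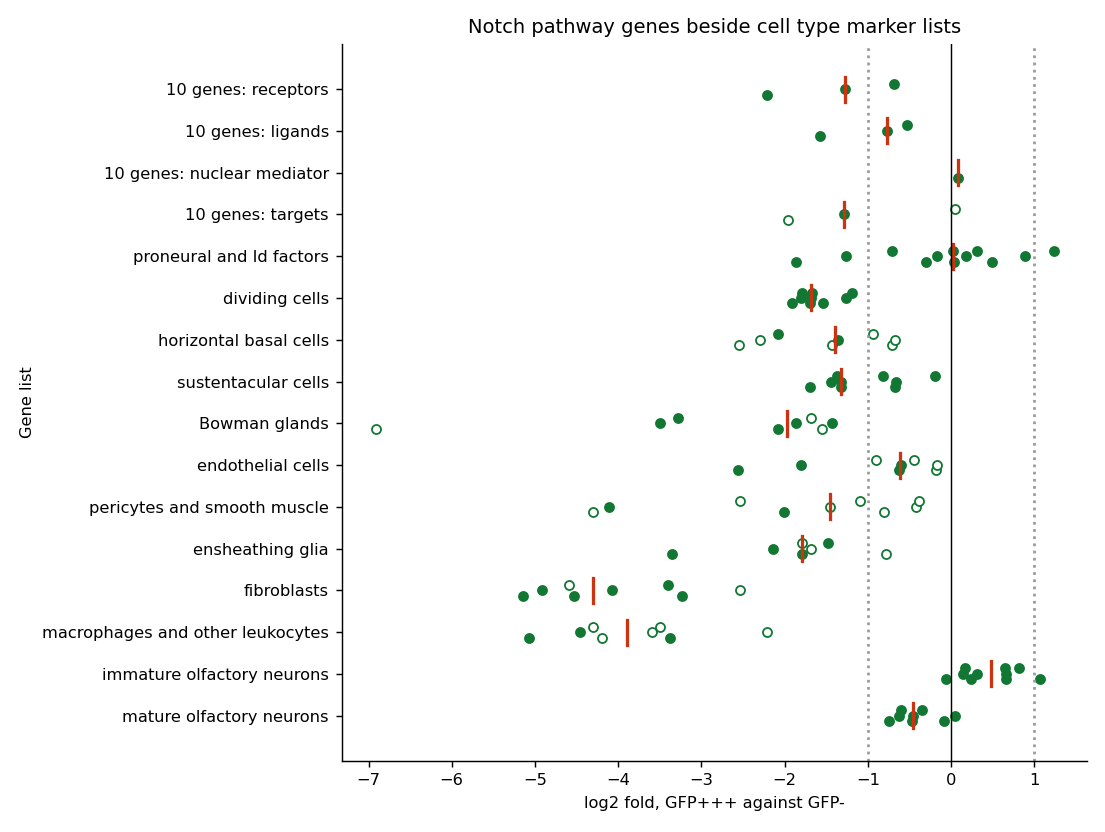
Log2 fold of GFP+++ against GFP- of the 10 genes by role and of the marker lists, 1 point per gene above the floor on either array, with open points for lower bounds, red bars for medians and dotted lines at 2-fold. The receptor and target medians, -1.27 and -1.29 over 3 genes each, are the values of Notch3 and Hey1. The medians of sustentacular, horizontal basal and pericyte markers are -1.32, -1.39 and -1.45. Of the horizontal basal folds 6 of 8 are bounds, and of the pericyte folds 7 of 9, so these medians give a minimum decrease. The fibroblast and leukocyte medians lie at -4.30 and -3.89.

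The genes most like a member were sought by the distance between pairs of log2 folds (GFP+++ against GFP- and GFP+ against GFP-) over 3 arrays, among 10055 genes above the floor on all arrays. For Notch1 the nearest were Bmp2k, Eci1 and Tram1, at distances of 0.013, 0.014 and 0.015. For Dll1 they were Coro2b, Insig1 and Ncapd2 (0.017, 0.017 and 0.022), and for Dll3 Znrf3, Efl1 and Pfas (0.012, 0.013 and 0.019). As 535, 569 and 972 genes lay nearer to Notch1, Dll1 and Dll3 than the probe set SD, the order among them is within that SD. Hes1 and Hes5 were under the floor on an array and were not placed.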

How the data were processed

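RNA of 3 sorted fractions was measured on 1 Affymetrix array each, isolated with TriReagent and labelled with biotin per the labels' protocols. The deposited intensity values are linear signals, for which the submitters' processing notes name MAS5 without version or settings. Their 2% trimmed mean was 500.0 on every array. Of 45101 probe sets, 34945 had 1 gene symbol and were no control; 34741 of these matched the RefSeq table of GRCm38.p6 by Entrez identifier, with 0 symbols changed. The brightest probe set by mean signal stood for each of 18193 genes. Signals were raised to the floor and log2 folds computed with Python 3.11.15, numpy 2.4.6, pandas 2.3.3 and scipy 1.17.1, and the steps were tested on simulated data. Median scaling, quantile normalization, other floors and other probe set rules were tried. Detection calls were not used here. Members and lists were chosen with earlier results of these data known. Named beside the members were other pathway genes 2-fold or more apart in any comparison and the brightest gene of each role; other genes with values were chosen after these were seen.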

Additional observations from a re-analysis of the deposited data

How the results depend on the processing

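The sign of the log2 fold against GFP- in GFP+++ was kept by every one of the 10 genes that had a value under median scaling, quantile normalization, a floor at the 65th percentile, no floor, the median over probe sets and the omission of _x_at and _s_at probe sets. With median scaling, which moved the median of all genes to 0.42, 3 genes (Notch2, Jag1 and Hes1) in place of 5 were lower by 2-fold or more in GFP+++ relative to GFP-; the scaling shifts every gene above the floor by the same amount. With no floor, 1 gene in place of 0, Hes5, passed 2-fold on the higher side in GFP+ relative to GFP-, on a signal under the floor in GFP-. The other counts of the 10 genes past 2-fold stayed within 1.5 times. Among marker lists in GFP+++ against GFP-, median scaling took the sustentacular genes past 2-fold lower from 5 to 2 and the immature neuron genes past 2-fold higher from 1 to 5. The share of lower genes among all calls of GFP+++ against GFP- went from 86.6% to 48.1% with median scaling (1045 lower, 1129 higher) and to 78.1% with quantile normalization. For GFP+ against GFP- it went from 57.0% to 26.0% and for GFP+++ against GFP+ from 90.5% to 64.8% with median scaling. With the floor of 276 at the 65th percentile Dll1, Dll3 and Hes5 had no value and Hes1 was lower by at least a log2 fold of -0.56, since the floor rose. Signals of Dll1, Dll3 and Hes5 lay too near the floor for firm folds. No paired analysis was possible because each fraction has 1 array.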
